A study of Mus musculus with 2 samples.

Results

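Myomesins and myosin-binding proteins C are structural proteins of the thick filament of striated muscle. This gene set holds 7 members, Myom1, Myom2, Myom3, Mybpc1, Mybpc2, Mybpc3 and Mybph, of the 55536 genes in the deposited gene tables. The members were taken by name and matched to gene identifiers through the symbols in the deposited transcript tables, and all 7 had a row in every table. Myomesins bundle the tails of myosin and anchor titin at the M-band, the line in the middle of the sarcomere, and the isoforms mark fibre kinds with different mechanics. Myosin-binding proteins C sit in the C-zone on either side of it, bind myosin and actin, and tune the speed and force of contraction. By textbook naming Mybpc1 is the slow skeletal form, Mybpc2 the fast skeletal form and Mybpc3 the cardiac form, and Mybph encodes the shorter relative myosin-binding protein H.

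Total RNA was sequenced from gastrocnemius, a mixed but mainly fast muscle of the calf, of female mice of the strain B6CASTF1/J at 36 days of age. The strain is a first-generation cross of C57BL/6 and castaneus mice. The series holds 1 group of 2 libraries, called replicate 1 and replicate 2, each from 300 ng of RNA with ERCC spike-in RNAs added. No treatment, genotype or age differs between them, so the values are described within each library and between the libraries, with no p-value. The labels number the tissue samples separately and give both the same strain-level donor entry, and they do not say whether 2 animals were used, so the spread may be partly technical.

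The gene tables held 37735687 expected counts in replicate 1 and 40656175 in replicate 2. An expected count is a number of reads assigned to a gene by estimation, and TPM is that count corrected for transcript length and scaled to the same total in every library. Markers checked the tissue: the 12 fast-fibre sarcomere genes on the marker list had a median of 9164 and 6929 TPM in replicates 1 and 2. The libraries differed in fibre genes and in other cell types. The 12 slow-fibre sarcomere genes summed to 119.9 and 3869 TPM, with medians of 0.92 and 308 TPM. Actn2, an alpha-actinin, alone gave 85.4 TPM of the sum in replicate 1. None of the 12 was at 0 counts in either library, but some had few in replicate 1, such as Csrp3 with 3. Mitochondrial genes took 9.39% and 17.5% of counts, in the same order. Markers of fat cells (5 of 5 over 2-fold higher in replicate 1, summed 214.8 and 23.9 TPM), of nerve (5 of 5, 122.6 and 37.3 TPM) and of red blood cells (5 of 5, 2445 and 425 TPM) went the other way. In bulk RNA of this kind, fewer cells or fibres of a type and less RNA per cell cannot be told apart.

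Together the 7 genes held 1.31% of the counts of replicate 1 and 0.973% of replicate 2. Mybpc2 was the highest member, with 2802 TPM in the first library and 1707 TPM in the second (2254 ± 775 TPM, SD, n = 2), and ranked 41 of 55536 genes by mean TPM. Myom2, the myomesin typical of fast fibres, stood at 618 and 468 TPM (543 ± 106 TPM). Myom1, the myomesin found in all striated muscle, stood at 569 and 489 TPM (529 ± 56.4 TPM). These ranked 103 and 105. By alignment-based TPM their order was opposite in the 2 libraries, with Myom2 over Myom1 at 1.09 and 0.956, and the means differed by less than the SD of either gene. In the reads-based table the ratio was 1.26 and 1.13, with Myom2 higher in both libraries, so the order of this pair depended on the table.

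**Figure D1:**
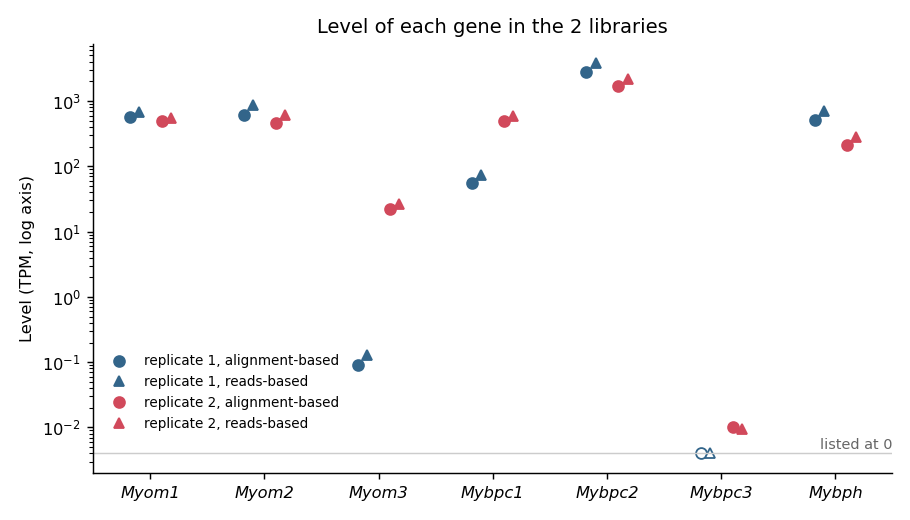
Level of each of the 7 genes in TPM on a log axis, with circles for the alignment-based gene table and triangles for the reads-based table, blue for replicate 1 and red for replicate 2, and open symbols on the grey line for genes listed at 0. Mybpc2 is highest in both libraries, Myom1 and Myom2 lie close together, and Myom3 and Mybpc1 are the genes whose red symbols stand far above the blue ones.

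Mybph stood at 505 and 214 TPM (360 ± 205 TPM). Mybpc1 stood at 54.9 and 495 TPM (275 ± 311 TPM). Their order was also opposite, with Mybph above Mybpc1 in replicate 1 and below it in replicate 2. The mean levels of Myom1 and Mybph differed by less than the SD of Mybph. Myom3, the myomesin described in intermediate and slow fibres, was at 0.09 and 22.5 TPM, well below the 5 genes above in both libraries.

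Mybpc3 was listed with 0 counts in replicate 1 and 1 count in replicate 2, placed on the coding Mybpc3-202. A count of 0 leaves room for as many as 3, or 7.95e-06% of that library. Of 10 heart markers, Myl7 (atrial myosin light chain), Nppb (a natriuretic peptide), Tbx20 and Nkx2-5 (cardiac transcription factors) also had 0 counts in both libraries of the alignment-based gene table. The reads-based table gave the same for Myl7, Nppb and Nkx2-5 but 79.3 and 64.6 counts for Tbx20. Nppa had 0 and 1 count and Tnni3, cardiac troponin I, 0 and 5 counts. The other listed genes had counts in both libraries: Hcn4, a pacemaker channel, 185 and 106, Tnnt2, cardiac troponin T, 75 and 39, and Ryr2, the cardiac calcium release channel, 16 and 17. The heart list summed to 3.70 and 98.6 TPM, and 96.6 TPM of the latter was Myh6, a myosin heavy chain also known from slow and specialised skeletal fibres.

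Within the myosin-binding protein C genes, Mybpc2 held 83.3% of the summed TPM in replicate 1 and 70.6% in replicate 2 (77.0% ± 9.0, SD, n = 2). Mybpc1 held 1.63% and 20.5% (11.1% ± 13.3), and Mybph 15.0% and 8.87% (11.9% ± 4.35). By counts, the 95% Wilson interval of the Mybpc1 share was 1.63% to 1.72% in replicate 1 and 19.5% to 19.8% in replicate 2. The intervals lie far apart. They hold the error of counting alone, since copies of a molecule made by PCR can be counted as separate reads. Mybpc2 TPM was 51.0 times Mybpc1 TPM in replicate 1 and 3.45 times in replicate 2. The summed level of these 4 genes was 3362 TPM and 2416 TPM.

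**Figure D2:**
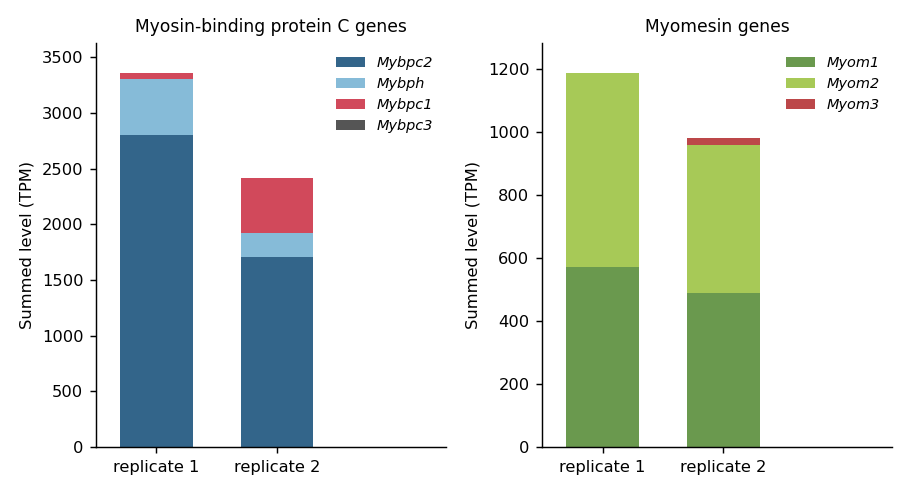
Summed TPM of the myosin-binding protein C genes (left) and the myomesin genes (right) in each library, with 1 colour for each gene. Mybpc1 is a thin band of 54.9 TPM in replicate 1 and a broad band of 495 TPM in replicate 2, while Myom1 and Myom2 share the myomesin bar about equally in both libraries.

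Among the myomesins, Myom1 held 47.9% and 49.9% of the summed TPM, Myom2 52.0% and 47.8%, and Myom3 0.00758% and 2.30%. The make-up of Myom1 and Myom2 differed by a few percent between the libraries, and Myom3 was a minor component in both. The myomesins summed to 1187 and 980.0 TPM. Set against titin, the giant protein that myomesin anchors, their summed TPM was 0.430 of Ttn TPM in replicate 1 and 0.334 in replicate 2 (0.382 ± 0.0677). Mybpc2 TPM was 0.182 of the TPM of Myh4, the 2B myosin heavy chain, in replicate 1 and 0.164 in replicate 2 (0.173 ± 0.0126), a ratio that varied less than the level of either gene.

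Ratios between the libraries were taken from counts scaled by TMM (trimmed mean of M-values, a method that sets the typical gene to no difference). Of the 7 genes, 6 averaged 100 counts or more, and 3 of those 6 were over 2-fold apart, against 3.35% of the 9997 genes that averaged as much. In the single directions 2 genes, Myom3 and Mybpc1, were over 2-fold higher in replicate 2, against 2.14% of genes, and 1 gene, Mybph, was over 2-fold higher in replicate 1, against 1.21%. The median log2 ratio of the 6 was -0.29, beside 5.34e-05 over the 9997 genes. Scaling to the spike-ins in place of TMM raised the log2 ratio of the median gene by 0.38 and called 585 of the 9997 genes, 519 of them higher in replicate 2, where TMM called 335 with 214 higher.

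The count of Myom3 was 10 in replicate 1 and 3549 in replicate 2, for a scaled ratio of 341 (95% exact Clopper-Pearson counting interval 185 to 713). Only 10 of the 9997 genes had a higher ratio. Mybpc1 had 5577 and 50211 counts, a ratio of 8.66 (8.43 to 8.91), with 34 genes above it. For scale, edgeR gave a common coefficient of variation of 0.228 over the 9997 genes. It was taken from these same 2 libraries, so it gives no test of either ratio.

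Mybph, with 26820 and 12060 counts, was 2.31-fold higher in replicate 1 (2.26 to 2.36), and 85 of the 9997 genes had a lower log2 ratio than its -1.21. Under spike-in scaling its log2 ratio was -0.83, under 2-fold with the same sign. Mybpc2, with 300459 and 193243 counts, was 1.62-fold higher in replicate 1 (1.61 to 1.63), a log2 ratio of -0.69 that was -0.31 under spike-in scaling. For Myom2 (90718 and 72911 counts) the log2 ratio was -0.37, and for Myom1 (71329 and 63787 counts) -0.22. Both signs turned under spike-in scaling, to 0.01 for Myom2 and 0.16 for Myom1, so no direction is given for these genes. Over the 272 genes that averaged 10000 counts or more, the absolute log2 ratio had a median of 0.27 and a 95th percentile of 1.37. Myom1 lay under that median. Mybph, Mybpc2 and Myom2 lay between the median and the 95th percentile, so inside the spread of genes with such counts. Mybpc1, also among these genes, lay above the 95th percentile at 3.11. Over all 9997 genes, 242 had a lower log2 ratio than Mybpc2.

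**Figure D3:**
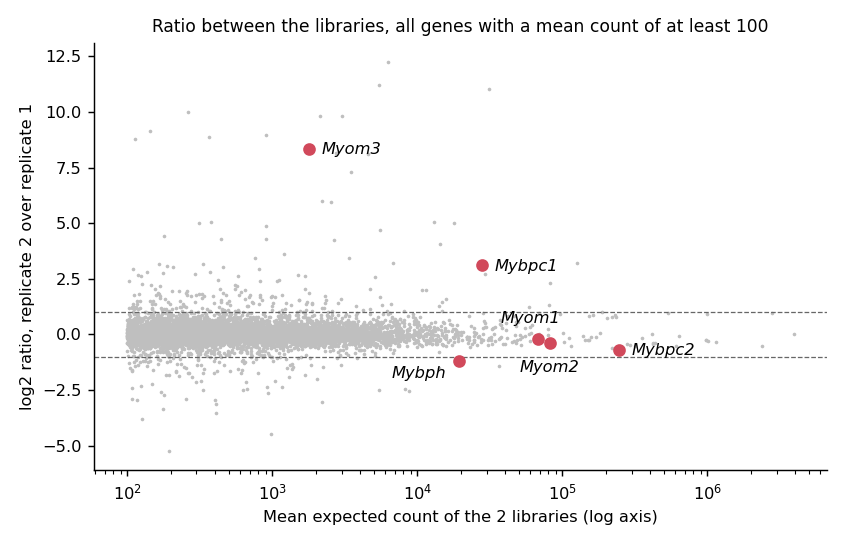
Log2 ratio of replicate 2 over replicate 1 against mean expected count (log axis) for 9997 genes in grey, with 6 members in red and dashed lines at 2-fold. Myom3 (8.35) and Mybpc1 (3.11) stand above the upper line, Mybph (-1.21) lies below the lower line, and Myom1, Myom2 and Mybpc2 lie between the lines.

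The ratios of Myom3 and Mybpc1 were set beside the lists of sarcomere genes. All 12 slow-fibre genes were over 2-fold higher in replicate 2, with a median log2 ratio of 8.14, and of the 12 fast-fibre genes 2 were, Myh1 and Myh2, the heavy chains of 2X and 2A fibres. Likeness was the absolute difference of log2 ratios over the 2 libraries, among 42 listed genes that averaged 100 counts or more. Nearest to Myom3 (8.35) were the slow troponins Tnni1 (8.16) and Tnnt1 (8.12), then Csrp3 (8.95), a muscle LIM protein. For Mybpc1 (3.11) the nearest genes were Myh1 (3.22), Lmod2 (3.44), a leiomodin of thin filament ends, and Actn2 (2.71). Actn2 is on the slow-fibre list, though it is the alpha-actinin of all fibre types. The genes nearest Myom3 had 3 to 31 counts in replicate 1, and those nearest Mybpc1 had 547 to 23505. In replicate 1, Mybpc1 had 54.9 TPM where Myh7, the slow myosin heavy chain, had 0.24 TPM, Myh2 146.9 TPM and Myh1 131.8 TPM. In replicate 2 these stood at 495 TPM for Mybpc1, 472 TPM for Myh7, 728 TPM for Myh2 and 1224 TPM for Myh1. These values are by alignment. The reads-based table gave, in replicate 1, 73.8 TPM for Mybpc1, 2.96 TPM for Myh7, 239 TPM for Myh2 and 321 TPM for Myh1. There Myh7 was higher than by alignment and the order of Myh1 and Myh2 was opposite. In replicate 2 it gave 597, 406, 903 and 2658 TPM for the same genes. With 2 libraries many genes share a ratio, so the likeness is a description. Nearest to Mybpc2 (-0.69) were Trim63 (-0.72), a ubiquitin ligase that binds titin at the M-band, Mylpf (-0.61), the fast regulatory light chain, and Pvalb (-0.60), a calcium buffer. Mybph had the same 3 nearest genes but at a distance of 0.49 or more. Nearest to Myom2 were Obsl1 (-0.37), a partner of myomesin, Myoz1 (-0.36) and Atp2a1 (-0.35). Unc45b (-0.22), a myosin chaperone, Speg (-0.23), a muscle kinase, and Tnnc2 (-0.24), fast troponin C, lay nearest to Myom1.

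Among the 20 other genes of the M-band and A-band on the list, 18 averaged 100 counts or more. Of these, 0 were over 2-fold apart in either direction, beside 3.35% of all such genes, so with 18 genes a count of 0 is near that share. The median log2 ratio of the 18 genes was -0.18, with 13 of 18 lower in replicate 2. That median is smaller in size than the shift of 0.38, so no direction is given for the list. The highest by level was Ckm, the creatine kinase that also binds at the M-band, at 23121 and 16462 TPM. Eno3, an enolase, stood at 3851 and 3199 TPM, and Ttn at 2764 and 2935 TPM. Cmya5, myospryn, stood at 487 and 438 TPM, and Ank1, an ankyrin, at 305 and 221 TPM. Fhl2 was 3.05-fold higher in replicate 2 but had only 23 and 73 counts, under the count minimum. Markers of slow fibres were higher in the same library as Myom3 and Mybpc1. Markers of fat, nerve and red blood cells were higher in the same library as Mybph and Mybpc2. So, under TMM, were 10 of the 12 fast-fibre genes, with 2 higher in replicate 2 and a median log2 ratio of -0.38 for that list. That median is about as large as the spike-in shift, so no direction is given for the fast-fibre list as a whole. Also higher in the library with more Myom3 and Mybpc1 were all 5 thymocyte and T cell markers, which summed to 0.20 and 5.81 TPM, with Rag1, the recombinase of lymphocytes, at 0 and 289 counts and Dntt at 0 and 52. Of the 5 muscle spindle genes, which summed to 2.20 and 101.4 TPM, 2 averaged 100 counts or more, Myh6 and Myh7b, and both were over 2-fold higher there. Myh6, also on the heart list, made up 96.6 of the 101.4 TPM by alignment, and the reads-based table gave it 50.1 TPM. The spindle sum thus rested mainly on that gene. The part of these markers in the results was not tested.

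**Figure D4:**
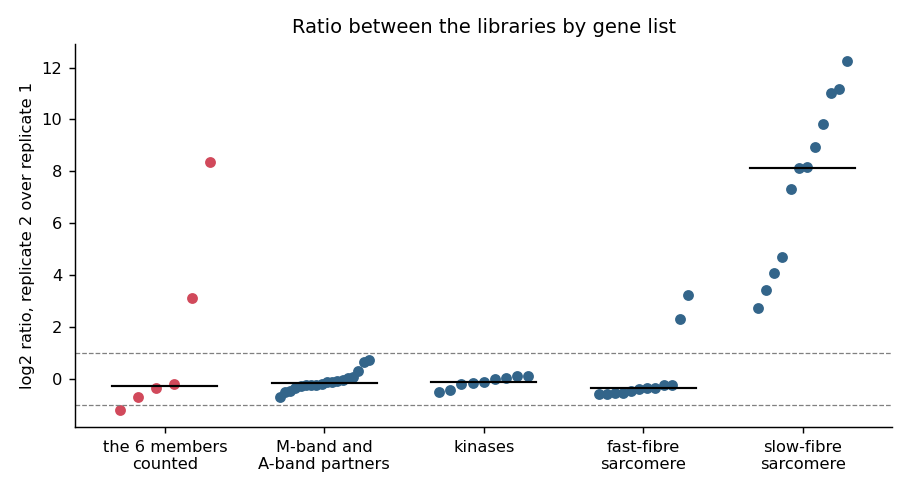
Log2 ratio of replicate 2 over replicate 1 for the genes of each list that averaged 100 counts or more (points, sorted within a list), with the median as a black bar and dashed lines at 2-fold. All 18 M-band and A-band partners lie between the dashed lines, the slow-fibre genes have a median of 8.14, and Myom3 (8.35) and Mybpc1 (3.11) are the upper 2 red points.

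Transcript tables gave a second level of detail. The leading transcript was the same in both libraries and in both the alignment-based and the reads-based table for 5 genes: Myom1-203, Myom2-201, Mybpc1-202, Mybpc2-201 and Mybph-201. For Myom3 the tables listed the short Myom3-203, annotated as a retained intron, first in replicate 1, where the gene had 10 counts, and the coding Myom3-201 first in replicate 2 (81.7% of TPM by alignment). Mybpc2-201 held 99.98% of Mybpc2 TPM in both libraries. Myom2-201 held 94.8% and 95.3%.

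The coding Myom1 transcripts of full length differ by a few exons, which are shown here because the libraries or the tables differ in them. Myom1 (ENSMUSG00000024049.15) lies on chromosome 17 from 71002633 to 71126856, plus strand, in mm10 with GENCODE M21. Myom1-202 carries a coding exon of 294 bases, 98 codons in length, that Myom1-201 and Myom1-203 lack. By its place and length it is read here as the EH segment, known from embryonic heart and slow fibres, a name the annotation does not give. It is exon 18 of 38, at chr17:71082203-71082496, and reads, 5′ to 3′:
EH exon of Myom1-202: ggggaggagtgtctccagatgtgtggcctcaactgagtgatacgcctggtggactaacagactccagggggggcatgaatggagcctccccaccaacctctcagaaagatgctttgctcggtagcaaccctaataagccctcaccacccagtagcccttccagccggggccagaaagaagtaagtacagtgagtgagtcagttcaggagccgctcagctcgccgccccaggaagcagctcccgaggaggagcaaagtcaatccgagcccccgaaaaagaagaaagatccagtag

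Myom1-202 stood at 1.99 and 25.2 TPM, with the authors' own intervals of TPM at 0.543 to 4.43 and 20.7 to 26.3. These intervals do not overlap. They are given as deposited: for Myom1-203 in replicate 1 the interval of 373 to 385 TPM did not hold the deposited 388 TPM. Over the same libraries the gene as a whole was at 569 and 489 TPM. Of the full-length coding forms Myom1-201, Myom1-202 and Myom1-203, it held 0.477% in replicate 1 and 7.16% in replicate 2 by alignment. The reads-based table gave 2.45% and 9.57%, the same order with a smaller ratio. Reads from this exon can also be assigned to the non-coding Myom1-204 and to Myom1-205, annotated as a retained intron, and these had 2.45 and 7.41 TPM in replicate 1 and 0.60 and 5.03 TPM in replicate 2. The exon-bearing coding transcript was thus higher in the library in which Myom3, Mybpc1 and the slow-fibre genes were higher.

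Near its end Myom1 has 2 versions of a 23-base coding exon, exon 35 of 37, that replace each other. Myom1-203 uses the copy at chr17:71121126-71121148 and Myom1-201 the copy at chr17:71120794-71120816. Myom2 and Myom3 each have a single coding exon 35 of 37 that is also 23 bases long, at chr8:15130635-15130657 and chr4:135810935-135810957, all on the plus strand. They are printed together because the tables disagree on the Myom1 copies; capitals mark bases equal to those of Myom1-203 at the same position, and Myom1-203 itself is in lower case:
Myom1-203 exon 35: acaagctgccattgctgaaaaaa
Myom1-201 exon 35: gaAgagccCacTTGacactgttA
Myom2-201 exon 35: ggctGCTGCttTTGCaGAgAAgA
Myom3-201 exon 35: ggccttgGCtgTcatTGAgAAgA
The Myom2 exon equals that of Myom1-203 at 14 of 23 positions, the Myom3 exon at 9 and the Myom1-201 copy at 6. The copy of Myom1-201 was thus less like the Myom1-203 exon than the exons of the other myomesins were.

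Myom1-201 held 6.54% of the full-length forms in replicate 1 and 2.17% in replicate 2 by alignment, against 22.4% and 19.0% in the reads-based table. The alignment-based table also placed 24.0% and 26.4% of Myom1 TPM on Myom1-208, a 941-base non-coding transcript that overlaps the last exons, to which the reads-based table gave 0 and 8.16e-06 TPM. The quantifications therefore differed more than the libraries did, and no level of the exon 35 copies is read from them.

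**Figure D5:**
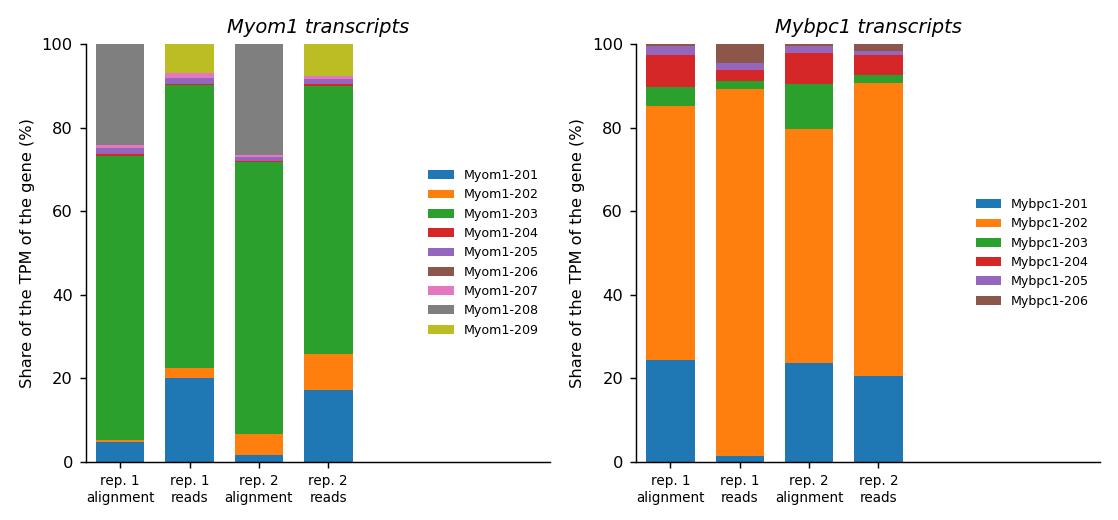
Share of the TPM of Myom1 (left) and Mybpc1 (right) held by each annotated transcript, for each library (rep. 1, rep. 2) in the alignment-based and the reads-based table. Myom1-203 and Mybpc1-202 are the widest bands in every bar, Myom1-202 is wider in replicate 2 than in replicate 1 in both tables, and Myom1-208 appears only in the alignment-based bars.

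Mybpc1 (ENSMUSG00000020061.17) lies on chromosome 10 from 88518279 to 88605152 on the minus strand. Its main coding forms differ by 2 coding exons, shown because they tell the forms apart. Exon 3 of 29 of Mybpc1-202, 42 bases at chr10:88582007-88582048, is missing from Mybpc1-201. Exon 27 of 29 of Mybpc1-201, 59 bases at chr10:88521277-88521335, is missing from Mybpc1-202 and shifts the reading frame at the end of the protein. On the minus strand, 5′ to 3′, they read:
Mybpc1-202 exon 3: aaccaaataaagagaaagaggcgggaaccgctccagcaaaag
Mybpc1-201 exon 27: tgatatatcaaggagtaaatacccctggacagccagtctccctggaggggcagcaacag
Mybpc1-201 held 28.6% of the sum of these forms in replicate 1 and 29.5% in replicate 2 by alignment. In the reads-based table it held 1.62% and 22.6%. The tables lay nearer each other in replicate 2 than in replicate 1, where the gene had 5577 counts.

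Mybph (ENSMUSG00000042451.12, chromosome 1, 134193448 to 134201232, plus strand) has a form, Mybph-202, with the same coding length of 1449 bases as Mybph-201 and the last intron kept after the stop codon. It held 2.16% and 3.15% of Mybph TPM by alignment and 4.61% and 5.52% in the reads-based table. The short coding length sets Mybph apart from the other members: the longest coding forms are 3381 bases for Mybpc1, 3408 for Mybpc2, 3834 for Mybpc3, 5001 for Myom1, 4389 for Myom2 and 4317 for Myom3.

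The other members lie on other chromosomes of mm10. Myom2 (ENSMUSG00000031461.4) spans chr8:15057653-15133541 and Myom3 (ENSMUSG00000037139.15) chr4:135759715-135815564, both on the plus strand. Mybpc2 (ENSMUSG00000038670.11) spans chr7:44501699-44524656 on the minus strand, and Mybpc3 (ENSMUSG00000002100.15) chr2:91118144-91136516 on the plus strand.

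The families are related in sequence, and reads could in principle be shared. Of all 31-base words in the annotated transcripts, 0 of the words of Myom1, Mybpc1, Mybpc2, Mybpc3 and Mybph occur on the same strand in a transcript of another gene. The share was 1.01% for Myom2 and 0.3% for Myom3. The posterior SD of the count that the authors deposited was 0 for each of the 7 genes in both libraries. Genes on the opposite strand that overlap members were low, with Adora1 over Mybph at 65 and 17 counts and Gm48752 over Mybpc1 at 0 and 1 count. The exception was Myl12a, at 83.4 and 196.8 TPM, which overlaps the first 246 bases of Myom1, upstream of the start of the full-length forms.

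Promoters are printed for the 3 genes over 2-fold apart and for Mybpc2, the highest member, as the 250 bases before the gene start in RefSeq (GRCm38.p6). The table held 6 of the 7 genes, without Myom2. Motifs searched on both strands were CANNTG, the E-box bound by myogenic factors, and its form CAGCTG. The MCAT element, spelled CATTCC, was also searched, as were the MEF2 and CArG (serum response factor) motifs by name. CAGCTG lies within CANNTG. Capitals mark any match, also where matches touch:
Myom3, chr4:135759465-135759714, plus strand: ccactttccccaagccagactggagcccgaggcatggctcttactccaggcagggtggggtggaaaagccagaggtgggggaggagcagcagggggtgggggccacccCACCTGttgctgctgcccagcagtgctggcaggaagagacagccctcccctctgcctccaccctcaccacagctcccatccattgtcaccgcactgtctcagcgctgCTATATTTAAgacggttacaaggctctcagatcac
Mybpc1, chr10:88605153-88605402, minus strand: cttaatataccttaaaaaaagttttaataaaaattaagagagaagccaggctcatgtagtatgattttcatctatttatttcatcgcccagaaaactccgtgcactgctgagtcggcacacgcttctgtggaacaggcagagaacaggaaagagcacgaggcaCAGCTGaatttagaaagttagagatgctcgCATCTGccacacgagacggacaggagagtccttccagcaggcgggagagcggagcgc
Mybph, chr1:134193198-134193447, plus strand: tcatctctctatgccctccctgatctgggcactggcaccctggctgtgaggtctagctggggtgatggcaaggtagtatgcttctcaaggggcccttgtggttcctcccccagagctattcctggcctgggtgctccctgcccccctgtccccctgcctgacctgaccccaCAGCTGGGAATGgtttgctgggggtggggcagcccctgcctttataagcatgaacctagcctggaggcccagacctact
Mybpc2, chr7:44524670-44524919, minus strand: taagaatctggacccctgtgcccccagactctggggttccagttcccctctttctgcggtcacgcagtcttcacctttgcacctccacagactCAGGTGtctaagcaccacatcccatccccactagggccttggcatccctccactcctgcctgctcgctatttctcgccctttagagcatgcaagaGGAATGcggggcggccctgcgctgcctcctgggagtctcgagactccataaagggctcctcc
Myom3 had a MEF2 match whose first base lies 35 bases before the start, and 2.92% of 32851 promoters of this length held one. Mybpc1 had CAGCTG beginning at 87 bases before the start and Mybph at 79, against 13% of promoters. Mybph and Mybpc2 had CATTCC, read on the other strand, at 73 and 62 bases, against 12.6%. CANNTG was found in 66.2% of promoters and in all 6 members with an entry. Among the 2 members not printed, Myom1 had a CArG match, held by 1.47% of promoters, and Mybpc3, with its 0 and 1 count, had CAGCTG and MEF2 matches. These matches describe the letters in this window only. No motif searched was shared by Myom3 and Mybpc1, the pair higher in replicate 2, except CANNTG.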

How the data were processed

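Total RNA of 2 gastrocnemius libraries was measured, in 1 group, with replicate numbers from the labels. The authors deposited, per the file headers and the deposited descriptions, 3 tables for each library on mm10 with GENCODE M21: a gene table and a transcript table based on transcriptome alignments, and a second transcript table built on the reads themselves. The quantification program is not given in the sources used here. Expected and estimated counts are as deposited and not normalised. TPM and FPKM are as deposited by the authors. The deposited posterior SD of a count and bounds of TPM were used as scores, with the level of the bounds not given. The deposited percent per transcript was recomputed from TPM.

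Counts were rounded and scaled by TMM in edgeR 4.0.16 (R 4.3.3) over 9997 genes that averaged 100 counts or more, without 97 spike-in and 26248 tRNA rows; log2 ratios used a prior count of 0.5. DESeq2 1.42.0 gave an alternative scaling. Python 3.11.15, matplotlib 3.10.9, scipy 1.17.1, pandas 2.3.3 and numpy 2.4.6 did the rest. Intervals (95%, exact or Wilson) and the limit of 3 counts set for a count of 0 hold only the error of counting. The TMM scaling step was tested on simulated data, and no conclusion on the 2-fold calls is drawn from that. With 1 group no condition was tested. The reference is of 1 strain, and the effect of castaneus alleles on alignment was not tested. The members and lists were chosen with earlier results of these data known. Named genes are all members, the 6 highest partner genes (1 of them is not reported here), the 3 nearest ratios for each member, transcripts with at least 10% of a gene and the kinase with the highest level; Fhl2, Actc1, Myh3, Mybphl, Rag1, Dntt, Myh7b, the heart markers, Myh2, Myh7, the overlapping genes and the smaller transcripts were named after their values were seen.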

Additional observations from a re-analysis of the deposited data

How the results depend on the processing

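Alternatives for the ratios covered 3 other count scalings, the ratio of deposited TPM, the reads-based table, 2 other filters on low counts, a prior count of 5 and a fold threshold of 1.5. The number of members over 2-fold apart was 3 under all but 3 of these 9: it was 2 under spike-in scaling, without Mybph, and 4 without a filter, with Mybpc3 at 0 and 1 count, and at 1.5-fold, with Mybpc2. The log2 ratio of Myom3 ranged from 7.83 to 8.72, of Mybpc1 from 3.06 to 3.49, of Mybph from -1.26 to -0.83 and of Mybpc2 from -0.75 to -0.31, each with 1 sign in all 8 alternatives. Myom1 and Myom2 turned sign under spike-in scaling. The number of all genes over 2-fold apart was 585 under spike-in scaling, 6705 of 23857 without a filter, 1163 of 15007 with a minimum mean count of 10 and 907 at 1.5-fold, against 335; more genes of few counts were tested under the looser filters. Levels and shares were also taken from FPKM, from counts, from the reads-based table and from each library alone. The Myom2 share of myomesin was 53.8% in the reads-based table and 54.0% by counts, against 49.9%. Myomesin over titin was 0.0383 by counts, which are not corrected for the length of titin. In the reads-based table the Myom1-201 share was 20.7% against 4.35%, the Mybpc1-201 share 12.1% against 29.1% and the Mybph-202 share 5.07% against 2.66%; the cause was not tested. The mean Mybpc1 share was 10.7% in the reads-based table and by counts, against 11.1%, but 1.63% and 20.5% in the single libraries. By counts the Mybph share was 8.06% and 4.72% in the single libraries, against 15.0% and 8.87% by TPM, and in the reads-based table the Myom1 share was 44.2% and 45.8%, against 47.9% and 49.9%. No paired analysis was possible because the series holds 1 group. At 10 counts of Myom3 in replicate 1, depth limits its ratio to within the interval given.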

Other observations

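Kinases that act on myosin-binding protein C were looked at from a list of 10 genes of the protein kinase A, CaMKII, protein kinase C, RSK and protein kinase D families. Of these, 9 averaged 100 counts or more and 0 were over 2-fold apart between the libraries, beside 3.35% of all such genes. Their median log2 ratio under TMM was -0.12, with 4 higher and 5 lower in replicate 2. That median is smaller in size than the shift of 0.38 that spike-in scaling adds, so no direction is given for the kinases. Camk2a, a subunit of CaMKII, was the highest, with 202.6 and 143 TPM in replicates 1 and 2.

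Of 6 genes of embryonic and neonatal muscle, 4 averaged 100 counts or more. Of these, Actc1, the cardiac actin also made in developing muscle, was over 2-fold higher in replicate 1, at 1252 and 457 TPM. Myh3, the embryonic myosin heavy chain, had 459 and 878 counts and was 1.84-fold higher in replicate 2, a log2 ratio of 0.88 before the shift of 0.38 that spike-in scaling adds. Of the listed markers, 4 of tendon, 4 of endothelial cells, 5 of fibroblasts, 5 of smooth muscle and 2 of macrophages averaged 100 counts or more. Under TMM 0 of these were over 2-fold apart, beside 3.35% of all such genes, so with few genes the 0 is near that share. In the same order, 4, 4, 2, 2 and 2 of them were higher in replicate 2. Kdr, an endothelial receptor, came closest to 2-fold, at a log2 ratio of 0.96 before the shift of 0.38.

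Mybphl, a short relative of Mybph known from atrium, had 1 count in replicate 1 and 0 in replicate 2, while Mybph had 26820 and 12060. Transcripts annotated as non-coding held 12.3% and 18.2% of Mybpc1 TPM by alignment, and 4.52% and 6.67% in the reads-based table. Among them Mybpc1-203, annotated as a retained intron, held 4.70% and 10.8% by alignment, and 1.83% and 1.90% in the reads-based table. For Mybpc2 and Mybph, no non-coding transcript is annotated.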
